A study of Mus musculus with 3 samples.

Results

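Mouse embryonic stem cells (ESCs) held 2886 promoter regions that were called for the histone variant H2A.Z and for its acidic patch mutant, and that were free of a call for trimethylated lysine on histone H3 (H3K27me3). These regions are called unmarked AP3 promoter regions here. They were selected on measured values, namely the deposited region lists: the midpoint of a wild-type H2A.Z region lay within 2 kb of the start of a protein-coding transcript, the region shared at least 1 bp with a mutant region, and it shared none with an H3K27me3 region. There were 78359 wild-type H2A.Z regions in all, of which 18957 lay at promoters, and the 2886 regions were set apart from 1177 with mutant and H3K27me3, 2793 with H3K27me3 but no mutant, and 12101 with neither, called wild type only. The overlaps that chose the regions are therefore given as a description, and nothing is tested with them.

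The study profiled chromatin by immunoprecipitation and sequencing (ChIP-Seq) in 3 libraries: H3K27me3, wild-type H2A.Z (H2A.Z WT) and the mutant (H2A.Z AP3), with 1 library each. Both H2A.Z forms were transgenes fused to yellow fluorescent protein (YFP), delivered by lentivirus into KH2 ESCs and switched on with doxycycline at 1 µg/ml from a CMV promoter that needs the rtTA activator. Cells of both lines were sorted for YFP, carried a short hairpin against the endogenous H2A.Z transcript, and were precipitated with an anti-GFP antibody (Abcam Ab290), so that only the tagged histone was read. In AP3, residues of the H2A.Z acidic patch were replaced by those of canonical H2A. The H3K27me3 library was made from cells labelled WT, with no induced transgene named. All libraries were labelled V6.5 (129SvJaexC57BL/6), although the treatment notes name KH2 cells for the transgenes. Feeder fibroblasts were left out for the final passage. The lists hold positions and no heights or reads, so the depth of each library is unknown, and a missing call cannot be told apart from low depth. With 1 library a group, no test between conditions was possible.

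H2A.Z replaces canonical H2A in nucleosomes that flank the nucleosome-depleted stretch at transcription starts, and it is loaded there by the SRCAP and p400 complexes. The acidic patch is a surface of the nucleosome to which other proteins and neighbouring nucleosomes bind. In ESCs, H2A.Z is known at active promoters and at bivalent promoters, where H3K27me3 laid down by Polycomb lies beside H3K4me3. Many mammalian promoters are CpG islands, stretches that have kept their CG dinucleotides because they stay free of DNA methylation.

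The sequences at the centre of the mutant stretch ran from CpG-rich to CpG-free. The lines below give 30 bases of mm9, plus strand, about the middle of the mutant stretch, with each CG in capitals. The first 6 come from the regions with the most mutant-covered bases outside chromosomes 6 and 8.
Celsr2 (chr3:108200123-108200152): ccCGggcctCGtcctagctgcttacctcag
Qprt (chr7:134265261-134265290): agcttctgcccttcCGtagggctcaacaca
Gltpd2 (chr11:70333798-70333827): ctggcccCGcaccatccatggcttatcCGt
Slc50a1 (chr3:89074473-89074502): gtggaacCGCGcCGgaaccCGccctCGccc
Edn2 (chr4:119834098-119834127): actctgcCGctgctgctatggtctcCGcct
Fam119b (chr10:126478548-126478577): caggcacCGggcccCGcctccccagttCGc

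The other set was chosen by CpG ratio. These are the 6 regions with the lowest ratio among those with at least 200 bp of mutant outside chromosomes 6, 8 and 18. Strand and capitals are as above.
Csdc2 (chr15:81769036-81769065): ctgcctcagatatgatagtcaccaggcaga
Traf3ip1 (chr1:93390661-93390690): gcctCGggtggtggtgagggtgaggtggga
Cdcp2 (chr4:106770136-106770165): cacctcactgaggagtggaggaagctagga
Krt17 (chr11:100124461-100124490): cctggCGgctggtcaccatgcctacagatg
I0C0044D17Rik (chr4:98489361-98489390): cagcagatgtttcctggagagccacagttt
Serpinf1 (chr11:75236248-75236277): cttggatctttatctctcttcattgggacc

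The 30 bases held 5 CGs at Slc50a1 and 0 at Csdc2. Over 500 bp about the midpoint of the whole region, the CpG observed to expected ratio, which is 1 where CGs are as frequent as the C and G content gives, was 0.712 at Slc50a1, which encodes a sugar transporter, with 33 CGs. It was 0.0728 at Csdc2, with 3 CGs. At Cdcp2 1150 bp of mutant lay in a region with 4 CGs in that window, so a long mutant stretch was also found on CpG-poor DNA.

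Another 5 sequences show the letters of an ETS-type site, CCGGAAG, in capitals, at regions of genes in the lists below. They were chosen after the values were seen, as those with the letters nearest the start. The motif strand is given with each.
Eif2c3 (chr4:126106780-126106809, plus strand): cccggtcgcccCCGGAAGcccgctcgcgtc
Rps27l (chr9:66793891-66793920, plus strand): ccgcctctatcCCGGAAGttgctgaggggc
Zfp689 (chr7:134592516-134592545, plus strand): ggtgagaggcaCCGGAAGatgccttcgggg
Polr2j (chr5:136592531-136592560, plus strand): ggctgagaaatCCGGAAGtggtcgcgcttc
Psmd13 (chr7:148068276-148068305, plus strand): cgcccgcggtgCCGGAAGtgagcgagcact

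The letters lay -8 bp from the nearest annotated start at Eif2c3 and 12 bp from it at Rps27l, where negative is upstream. They lay inside the mutant stretch at Zfp689 and outside it at the other 4.

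Of the 14987 promoter H2A.Z WT regions without H3K27me3, 19.3% overlapped the mutant. The share was 29.6% for the 3970 promoter regions with H3K27me3, 9.75% for the 57040 regions without the mark away from promoters, and 12.9% over all H2A.Z WT regions. Chromosomes 6 and 8 stood apart in both H2A.Z lists, and they held 703 of the 2886 unmarked AP3 promoter regions. For H2A.Z WT, they held 5970 and 6126 unmarked regions away from promoters, against 4298 on chromosome 2, the highest of the other autosomes. Their unmarked promoter H2A.Z WT regions had median lengths of 400 and 425 bp, against 300 to 375 bp on the other autosomes. On chromosome 6, 34.6% (95% Wilson interval 31.7 to 37.7) of unmarked promoter regions overlapped the mutant, and on chromosome 8 it was 35.5% (32.6 to 38.5). The 17 other autosomes lay between 14.9% and 18.6% with a median of 17.2%, and chromosome X lay at 8.50% (6.02 to 11.9). Unmarked promoter H2A.Z WT regions on X were shorter, with a median of 200 bp. No other autosome came near the level of chromosomes 6 and 8. Without those chromosomes 2183 of 12982 unmarked promoter regions, or 16.8%, overlapped the mutant. Wilson intervals here cover counting error only, and regions on a chromosome are not independent.

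**Figure D1:**
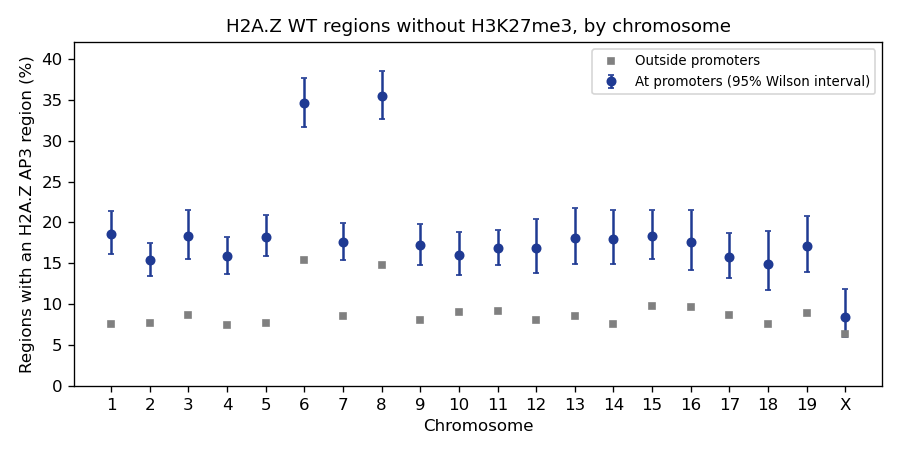
Percent of H2A.Z WT regions without H3K27me3 that overlapped an H2A.Z AP3 region, by chromosome, at promoters (circles, with 95% Wilson intervals) and away from them (squares). Chromosomes 6 and 8 sit at 34.6% and 35.5% at promoters, above the 14.9% to 18.6% of the 17 other autosomes.

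The higher share on chromosomes 6 and 8 was also seen away from promoters. There 15.4% and 14.8% of unmarked regions on chromosomes 6 and 8 overlapped the mutant, against 7.46% to 9.78% on the 17 other autosomes. The mutant also covered more of each region: the median unmarked AP3 promoter region was covered over 61.5% of its length on chromosome 6 and 55.6% on chromosome 8, against 26.5% to 40% on the other autosomes. Their part in the results below was not tested. Values without them are given beside many of the main ones, but not beside every share.

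The unmarked AP3 promoter regions were of intermediate length. Their H2A.Z WT regions had a median of 550 bp (95% order-statistic interval 550 to 575), with 10% at or under 225 bp, and the longest reached 4175 bp. Regions with mutant and H3K27me3 had a median of 950 bp, those with H3K27me3 but no mutant 550 bp, and wild type only regions 300 bp. The median was above that of the wild type only regions on 20 of 20 chromosomes and below that of the regions with mutant and H3K27me3 on 20 of 20. Length enters the chance of a shared base under the rule, so these counts are a description only.

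The mutant filled only part of most regions. A median of 175 bp was covered, from 25 to 3325 bp, which was 39.1% (37.5 to 40) of the region, and 33.3% without chromosomes 6 and 8. The quartiles were 19.4% and 68.8%. In 94.3% of regions there was 1 mutant region, and 192 regions (6.65%) were covered from end to end, 88 of them on chromosomes 6 and 8. The mutant reached past an edge of the H2A.Z WT region in 32.2% (30.5 to 33.9) of cases, against 14.5% (12.6 to 16.7) where H3K27me3 was also called. Without chromosomes 6 and 8 these were 27.3% and 11.5%. A mutant region from the stricter list, called at 1e-12, was found in 66.8% of unmarked and in 68.4% of marked regions, and in 61.7% and 64.1% without those chromosomes.

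At the edges of the rule, 247 regions held exactly 25 bp of mutant, the step in which the lists are written, and none held less. On the other side, 34 wild type only regions touched a mutant region without sharing a base, and 123 had one within 100 bp. The promoter region farthest from a start was that of Tmem40, at 1993 bp, and the nearest left out were those of Clip3 and Acsl1, at -2015 bp. H3K27me3 touched the edge of 15 regions and lay within 1 kb of 338, whereas 1689 (58.5%) were over 50 kb from any H3K27me3 call.

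The longest H2A.Z WT regions most often held the mutant. Of unmarked promoter regions up to 100 bp long, 60 of 1730 (3.47%) overlapped it, compared with 654 of 3299 (19.8%) at over 300 to 500 bp, 381 of 924 (41.2%) at over 1000 to 1500 bp, and 114 of 227 (50.2%) beyond. These bands gave 2.79%, 17.8%, 35.6% and 44.1% without chromosomes 6 and 8. The same climb was seen at promoter regions with H3K27me3, from 2.05% to 63.1%, and away from promoters, from 1.67% to 45.5%. The rule asks for a shared base, so a longer region has more bases in which to meet it.

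The gap between unmarked and marked promoter regions, 19.3% against 29.6% in total, was not seen in most length bands. Among the shortest, up to 100 bp, 3.47% (2.70 to 4.44) of unmarked and 2.05% (0.801 to 5.15) of marked regions held the mutant, and at over 100 to 200 bp the unmarked were the higher, 8.16% (7.17 to 9.28) against 4.67% (2.89 to 7.44), with intervals that barely overlapped. At over 500 to 750 bp, 26.8% (25.1 to 28.6) of unmarked and 29.0% (25.8 to 32.4) of marked promoter regions held the mutant. At over 750 to 1000 bp the values were 34.5% (31.9 to 37.1) and 33.2% (29.6 to 37.1). The intervals separated only beyond 1500 bp, at 50.2% (43.8 to 56.7) against 63.1% (58.2 to 67.7). Unmarked regions away from promoters were lower than unmarked promoter regions in every band up to 1500 bp, for example 21.2% (20 to 22.3) at over 500 to 750 bp, and without chromosomes 6 and 8 the values there were 24.0% at promoters and 18.7% away from them.

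**Figure D2:**
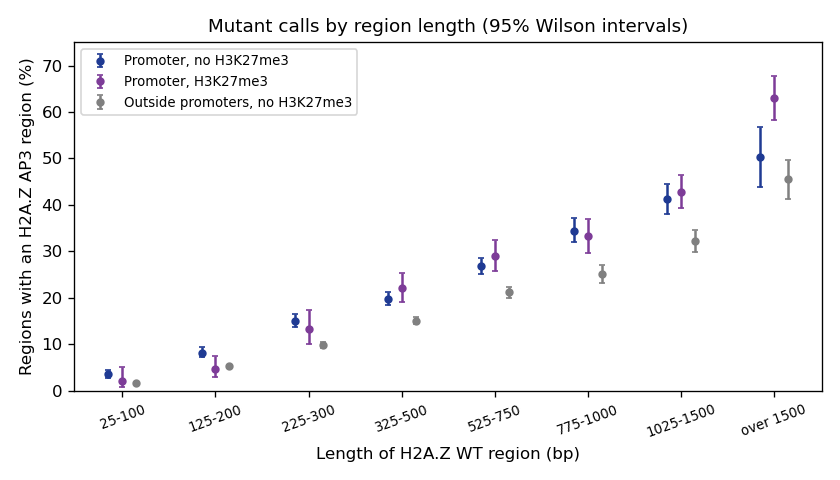
Percent of H2A.Z WT regions that overlapped an H2A.Z AP3 region (y axis) by length of the H2A.Z WT region in bp (x axis, 8 bands), with 95% Wilson intervals, for promoter regions without H3K27me3, promoter regions with it, and regions without it away from promoters. All 3 groups climb with length, and both promoter groups overlap in most bands.

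The share of unmarked promoter regions with mutant was highest, 24.9% (23.1 to 26.7), where the midpoint lay between -250 and 0 bp. It was 20.8% (19.6 to 21.9) just downstream, up to 250 bp, and 13.3% (11.5 to 15.4) between 500 and 1000 bp. In the farthest bands it was 12.1% upstream and 9.37% downstream. Without chromosomes 6 and 8 it was 21.6% (19.8 to 23.5) between -250 and 0 bp, 18.2% (17.1 to 19.4) between 0 and 250 bp and 11.04% between 500 and 1000 bp. Regions of over 300 to 750 bp gave 27.8% (24.9 to 31.0) between -250 and 0 bp and 23.5% (21.8 to 25.4) between 0 and 250 bp, so the order was kept at like length, with intervals that overlapped slightly. In that length class, the upstream bands at -1000 to -500 bp and at -2000 to -1500 bp stood at 24.5% (20.1 to 29.6) and 25.8% (18.9 to 34.2), above the matching downstream bands of 15.6% (12.1 to 19.99) and 13.9% (9.17 to 20.5). In the other pairs of bands at equal distance the upstream value was also the higher.

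**Figure D3:**
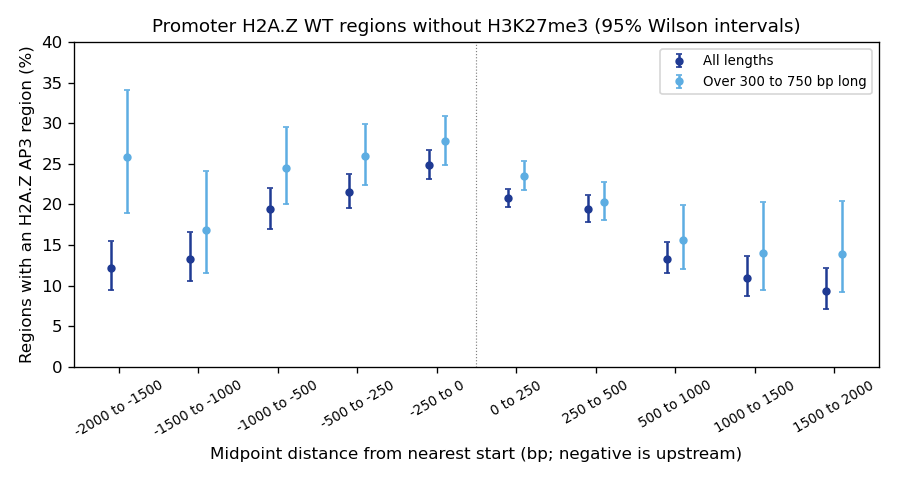
Percent of promoter H2A.Z WT regions without H3K27me3 that overlapped an H2A.Z AP3 region, by distance of the region midpoint from the nearest start in bp, for all lengths and for regions of over 300 to 750 bp, with 95% Wilson intervals. Upstream bands sit above the downstream bands at the same distance, with the highest value, 24.9% at all lengths, between -250 and 0 bp.

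In every length band up to 750 bp, unmarked promoter regions held the mutant more often upstream than downstream, with separate intervals. Of unmarked promoter regions up to 100 bp long, 41 of 731 (5.61%, interval 4.16 to 7.52) upstream of the start held the mutant and 19 of 999 (1.90%, 1.22 to 2.95) downstream. At over 100 to 200 bp it was 11.4% (9.61 to 13.4) and 5.84% (4.77 to 7.14). At over 1000 to 1500 bp the sides no longer differed beyond their intervals, at 40.5% (35.2 to 46.1) and 41.6% (37.8 to 45.5).

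Most unmarked AP3 promoter regions nonetheless lay downstream of or over the start. The midpoint was downstream in 59.8% (58.0 to 61.5), against 64.0% (63.1 to 64.8) of wild type only regions and 75.1% (72.6 to 77.5) of regions with mutant and H3K27me3. It was lower than in the latter on 20 of 20 chromosomes, and lower than in the wild type only regions on 16 of 20. Midpoints were close to the start, with 79.9% within 500 bp, against 69.7% of wild type only regions and 63.0% of regions with mutant and H3K27me3. Without chromosomes 6 and 8 the downstream shares were 59.7%, 64.2% and 75.8%, and those within 500 bp 80.3%, 70.8% and 64.4%. The region lay across the start in 1597 (55.3%), upstream of it in 655 and downstream in 634. By annotation at the midpoint, 21.6% lay in an untranslated exon, 18.5% in a coding exon, 31.0% in an intron and 28.8% outside genes.

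Mutant coverage dipped at the start. Around the start of unmarked AP3 promoter regions, H2A.Z WT covered the most sites in the bin at 150 bp, 73.1%, and still covered 60.0% in the bin just before the start. The mutant had a downstream maximum of 33.8% at 150 bp and an upstream maximum of 24.6% at -300 bp, with a low of 15.6% at -75 bp in between. The ratio of mutant coverage to H2A.Z WT coverage was 53.3% at -300 bp, 27.7% at -50 bp and 46.2% at 150 bp. Mutant coverage beyond the edge of an H2A.Z WT region counts in this ratio. Without chromosomes 6 and 8 the ratios were 45.5%, 22.4% and 41%, and the mutant maxima were 20.2% at -325 bp and 29.5% at 150 bp.

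The upstream shoulder was smaller where H3K27me3 was called. There the mutant covered 15.5% of starts at its upstream maximum, at -225 bp, and 30.3% at its downstream maximum, at 350 bp. The same ratio of mutant to H2A.Z WT coverage was 28.3% at -300 bp, 21.2% at -50 bp and 37.6% at 300 bp. Both classes were chosen for holding the mutant, and these values describe where in the region it lay. Within the 1597 unmarked regions that crossed the start, the main mutant stretch lay over the start in 30.3% (28.1 to 32.6), upstream of it in 26.2% and downstream in 43.5% (41.1 to 46.0). Without chromosomes 6 and 8 these were 25.1%, 28.5% and 46.4%, and in the 697 such regions with H3K27me3 they were 22.8%, 24.96% and 52.2%.

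**Figure D4:**
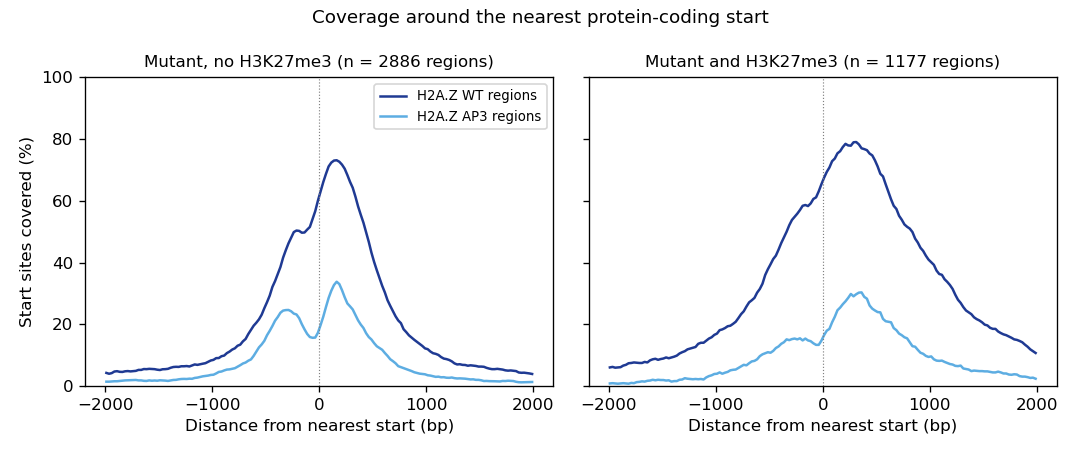
Percent of nearest starts covered by H2A.Z WT regions (dark) and H2A.Z AP3 regions (light) in 25-bp bins by distance from the start in bp, for the 2886 promoter regions with mutant and no H3K27me3 and the 1177 with both. In the former the mutant has an upstream peak of 24.6% and a downstream peak of 33.8%, and in the latter 15.5% and 30.3%.

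Regions beside the start were filled more by the mutant than those across it. The median covered share was 60% in the 655 upstream regions, whose median length was 300 bp, 40% in the 634 downstream regions (425 bp) and 33.3% in the 1597 across the start (750 bp). The covered shares were 53.9%, 33.3% and 27.5% without chromosomes 6 and 8, in the same order. In ranking by covered share, the 722 regions with the lowest share, up to 19.4%, had a median length of 725 bp and crossed the start in 64.3% of cases. The 722 with the highest, from 68.8%, had a median of 425 bp and crossed it in 42.4%. Chromosomes 6 and 8 held 12.6% of the former and 41% of the latter.

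The median CpG ratio at unmarked AP3 promoter regions was 0.662 (0.651 to 0.675), against 0.605 (0.597 to 0.614) in wild type only regions and 0.691 (0.677 to 0.705) where H3K27me3 was also called. A ratio under 0.48 was found in 25.8% (24.3 to 27.5), 37.6% (36.7 to 38.4) and 12.7% (10.96 to 14.8) of these. Without chromosomes 6 and 8 the medians were 0.663, 0.618 and 0.700, and the shares under 0.48 were 24.7%, 36.0% and 12.7%. By ratio, the share of unmarked promoter regions with mutant was 8.84% (7.35 to 10.6) up to 0.2, 23.5% (22.3 to 24.8) at over 0.6 to 0.8, and 15.0% (12.02 to 18.6) over 1. The values were 7.23%, 20.7% and 11.2% when chromosomes 6 and 8 were left out. At over 300 to 750 bp in length the same bands gave 12.1% (8.48 to 16.89), 24.99% (23.12 to 26.96) and 16.7% (11.27 to 23.95). The rise from the lowest band was thus also seen at like length. The fall over 1 was not separated there, as its interval overlapped that at over 0.6 to 0.8.

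The difference in CpG ratio from the wild type only regions was smaller close to the start. Among regions within 500 bp of a start the medians were 0.703 (0.695 to 0.713) and 0.690 (0.684 to 0.696), and among those of over 300 to 750 bp they were 0.656 (0.642 to 0.676) and 0.642 (0.634 to 0.653), with overlapping intervals in both. At over 300 to 750 bp the median with mutant and H3K27me3 was 0.658 (0.641 to 0.677). Over all lengths and positions, the median was higher than in wild type only regions on 17 of 20 chromosomes. A ratio under 0.48 was found in 33.4% of the 722 regions with the highest mutant cover and in 22.3% of the 722 with the lowest, and 41% of the former lay on chromosomes 6 and 8.

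Short promoter motifs were counted in the 500 bp about the midpoint, on both strands. Values for all promoters are over 22342 promoters, with or without H2A.Z WT. Their windows could therefore not all be centred on a region, which makes them an unlike set. The GC box (GGGCGG, read by Sp1 family factors) was in 63.7% (62.0 to 65.5) of unmarked AP3 promoter regions, 63.6% of regions with mutant and H3K27me3, 56.3% (55.4 to 57.2) of wild type only regions and 53.0% of all promoters. The ETS letters CCGGAAG were in 16.9% (15.6 to 18.4), 6.46% (5.19 to 8.01), 13.3% (12.7 to 13.9) and 14.5% of these. The sequences of Rps27l, Polr2j and Psmd13 above show the letters. The share was above that of regions with mutant and H3K27me3 on 20 of 20 chromosomes and above that of wild type only regions on 16 of 20. Within 500 bp of a start the values for these 3 classes were 19.4% (17.9 to 21.1), 6.07% and 16.4% (15.6 to 17.2). Without chromosomes 6 and 8, at all positions, they were 17.2%, 6.41% and 13.4%. Regions with H3K27me3 but no mutant held the ETS letters in 5.76% (4.96 to 6.69), also a lower share on 20 of 20 chromosomes. The low share was thus seen with H3K27me3 whether or not the mutant was called.

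The ETS letters were nevertheless less often under the mutant than the region as a whole. Of 619 such letters inside unmarked AP3 promoter regions, 168 (27.1%, interval 23.8 to 30.8) lay in a mutant stretch, whereas 39.6% of the bases did. The GC box was alike, with 1093 of 4046 (27.01%, 25.7 to 28.4). With chromosomes 6 and 8 left out, the shares were 21.2% (17.7 to 25.3) for the ETS letters and 22.6% (21.2 to 24.2) for the GC box, against 33.9% of the bases. The CCAAT box (CCAAT) lay in it in 36.2% (34.1 to 38.4) of cases, the TATA box (TATAAA) in 39.5% and the E-box (CACGTG) in 39.96%. A match is a string of letters and no evidence of a bound factor.

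The CCAAT box was in 38.8% of unmarked AP3 promoter regions and 39.2% of wild type only regions (48.0% of all promoters), the TATA box in 5.86% (5.06 to 6.77) and 6.87% (16.6%), the E-box in 10.9% and 11.7% (10.4%). The NRF1 letters GCATGCG were in 5.93% and 5.16% (5.50%), and the YY1 letters AAGATGG in 8.42% (7.46 to 9.49) and 9.69% (9.17 to 10.2), against 10.8% of all promoters. Regions with mutant and H3K27me3 held the CCAAT box in 33.4% (30.8 to 36.1), the TATA box in 3.48% (2.58 to 4.69), the E-box in 11.6%, the NRF1 letters in 3.23% (2.36 to 4.40) and the YY1 letters in 6.37% (5.11 to 7.91). The cyclic AMP response element TGACGTCA was in 2.43% (1.92 to 3.05), 1.93% (1.70 to 2.20) and 2.62%, and in 0.680% (0.345 to 1.34) of regions with mutant and H3K27me3. None of these strings contains another. A start of another gene on the opposite strand within 1000 bp upstream, a divergent promoter, was found at 8.14% (7.20 to 9.20), against 6.53% (6.10 to 6.98) for wild type only and 1.70% (1.10 to 2.61) with mutant and H3K27me3. With H3K27me3 but no mutant it was 1.68% (1.27 to 2.23). Against the wild type only regions the intervals overlapped without chromosomes 6 and 8, at 7.93% (6.86 to 9.13) and 6.76% (6.30 to 7.25), and within 500 bp of a start, at 9.59% (8.45 to 10.9) and 8.57% (7.99 to 9.19).

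The regions with the most mutant-covered bases were on chromosomes 6 and 8 in 9 of 10 cases. At Podnl1, which encodes a leucine-rich repeat protein, the H2A.Z WT region at chr8:86649276-86652625 was 3350 bp long and the mutant covered 3325 bp of it, with the nearest H3K27me3 call 82375 bp away. Its midpoint lay in an intron, 1063 bp downstream of the start. At Ldhd, which encodes a mitochondrial D-lactate dehydrogenase, the mutant covered all 2750 bp of chr8:114151901-114154650. Ndrg4, Necab2, Klhdc5 and St8sia1, the last a sialyltransferase gene of ganglioside synthesis, had 2075, 1900, 1850 and 1800 bp of mutant. Irak2, which encodes a kinase of interleukin-1 signalling, had 1525 bp. The longest region of all, at G430095P16Rik, was covered over 1575 of 4175 bp. At Chn2, which encodes a GTPase-activating protein for Rac, H3K27me3 touched the region's edge.

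Outside chromosomes 6 and 8 the widest mutant cover was at Celsr2, a cadherin of planar cell polarity, with 1625 of 1675 bp at chr3:108199276-108200950 in an intron. Qprt, an enzyme of NAD synthesis from quinolinate, had 1300 of 1450 bp at chr7:134264551-134266000, of which 100 bp were also in the 1e-12 list. Slc50a1 had 1225 of 1275 bp at chr3:89073851-89075125, centred 4 bp from the start in an untranslated exon. Edn2, which encodes endothelin-2, had 1225 of 1400 bp at chr4:119833326-119834725. The region shared by Fam119b and Mettl1, the latter a tRNA methyltransferase gene, had 1175 of 1350 bp at chr10:126477951-126479300. Gltpd2, Parp10, Dok2, Cdcp2 and Pou2f2, the last a POU factor of B lymphocytes, had between 1125 and 1275 bp.

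At the other end were long H2A.Z WT regions with 25 bp of mutant. The longest was at Plxnd1, a semaphorin receptor gene, with 2475 bp at chr6:115916451-115918925. Islr followed with 1900 bp, then Prkcd, which encodes protein kinase C delta, with 1675 bp and H3K27me3 25 bp away. Nbeal2 and Klhl21 had 1375 and 1325 bp. None of these 5 had mutant in the 1e-12 list.

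The 2886 regions lay within 2 kb of a start of 3016 protein-coding genes, which was 13.5% of the 22342 annotated and 22.3% of the 13517 with any promoter H2A.Z WT region. Of these genes, 2801 had 1 such region, 202 had 2 and 13 had 3 or more. A wild type only region lay at another position of the promoter in 1144 genes and a region with H3K27me3 in 245, so the class of a region was not the class of its gene. Peg10 and Sgce, imprinted neighbours on chromosome 6 that share a promoter, had the most, the same 4 regions with 625 bp of mutant together. Aarsd1, on chromosome 11, came next in alphabetical order among the genes with 3, with 675 bp. The median gene span was 24.0 kb (22.7 to 25.3), against 20.5 kb (19.7 to 21.4) for genes with wild type only regions alone and 33.5 kb (30.4 to 36.5) for genes with H3K27me3 at a promoter region.

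Genes of basic cell functions were read against the 13.5% of all genes and the 22.3% of those with H2A.Z WT. In the mitochondrial ribosome, 18 of 76 genes (23.7%, interval 15.5 to 34.4) had an unmarked AP3 promoter region, or 28.1% of the 64 with H2A.Z WT. In the cytosolic ribosome it was 8 of 82 (9.76%, 5.03 to 18.1), or 22.9% of the 35 with H2A.Z WT, beside the 22.3% of all such genes. The intervals of both lists over all their genes are wide. Mrps31, Mrpl35 and Mrps25, on chromosomes 8 and 6, were covered by the mutant from end to end, over 800, 475 and 400 bp, and Mrpl50, on chromosome 4, over 375 of 950 bp. Among the cytosolic genes, Rpl7 had 425 of 500 bp, and Rpl15, Rplp2 and Rps27l had 200 bp each.

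Of genes for replication origins and forks, 10 of 40 (25%, 14.2 to 40.2) had such a region, or 33.3% of the 30 with H2A.Z WT. Of these 10 genes, 4 were on chromosomes 6 and 8. Gins3 and Gins2, which encode subunits of the GINS complex of the replicative helicase, had 300 of 775 bp and 200 of 325 bp of mutant. Rpa3, for the small subunit of replication protein A, had 250 of 1100 bp, and Pold4, a DNA polymerase delta subunit gene, 200 of 650 bp. Of nuclear pore genes 7 of 26 (26.9%, 13.7 to 46.1) had one, or 33.3% of the 21 with H2A.Z WT. On chromosome 6 were 3 of them: Nup210 with 650 of 1500 bp, Sec13 with 500 of 650 bp and Nup205 with 275 of 300 bp. Nup88, on chromosome 11, had 200 of 250 bp. Without chromosomes 6 and 8 the counts for these lists were 6 and 4. Genes of the lists on those chromosomes were left out too, so these and the like counts below have no background beside them.

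The count for RNA polymerase II and Mediator was 9 of 43 (20.9%, 11.4 to 35.2), or 28.1% of the 32 with H2A.Z WT. Med11, a Mediator head subunit gene, had 325 of 425 bp, Polr2b, for the second largest polymerase subunit, 250 of 1100 bp, and Polr2j 225 of 750 bp. Med23 had 200 of 700 bp. Rab GTPase genes, which direct vesicle traffic, gave 13 of 56 (23.2%, 14.1 to 35.8), or 26.5% of the 49 with H2A.Z WT. Without chromosomes 6 and 8 the Rab count was 9. On chromosome 8, Rab3a, of synaptic vesicles, was covered over all 700 bp and Rab4a over 475 of 1225 bp. Rab31 was covered over 375 of 550 bp and Rab39 over 275 of 700 bp.

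The remaining lists of basic functions had counts from 9.68% to 16.2%, with intervals that held 13.5%. Proteasome genes gave 6 of 41 (14.6%, or 18.2% of those with H2A.Z WT), with Psmd13 and Psmd5 at 175 bp of mutant each. Aminoacyl-tRNA synthetase genes gave 6 of 37 (16.2%, or 23.1%), with Kars, on chromosome 8, at 1025 of 1225 bp, and 3 without chromosomes 6 and 8. Spliceosome genes gave 6 of 54 (11.1%, or 17.1%), with Snrnp27 covered over all 650 bp, and 10 with a window of 5 kb. Complex I genes gave 4 of 37 (10.8%, or 16% of those with H2A.Z WT), with Ndufa5 at 525 of 875 bp, but 8 with all lists at 1e-12 and 9 with the union of both thresholds. Translation factor genes gave 6 of 62 (9.68%, or 13.9%), 3 at 1e-12 and 11 with a window of 5 kb. Their list took in Eif2c3, an Argonaute gene by function, at 625 of 850 bp, and Eif1b had 325 of 425 bp.

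**Figure D5:**
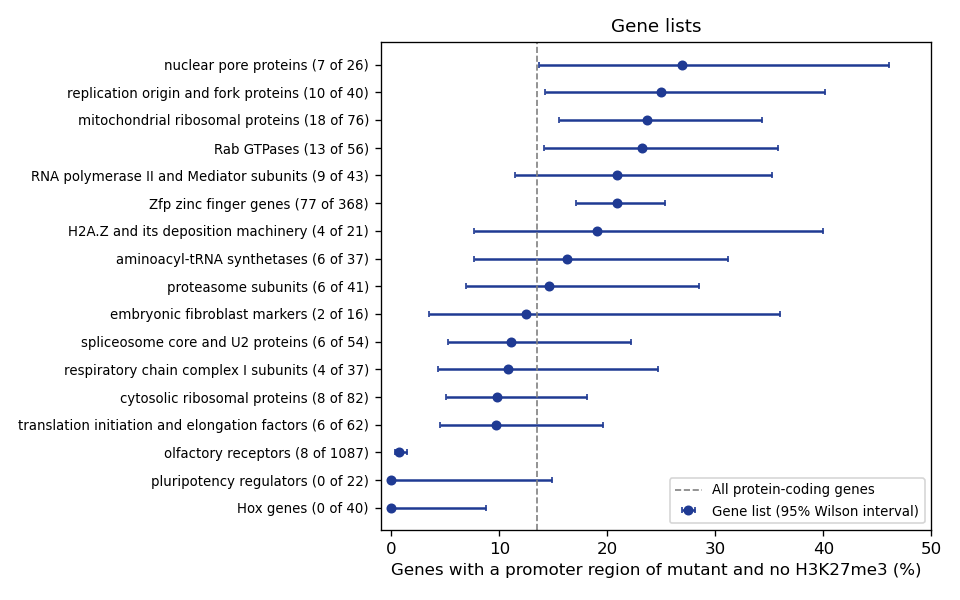
Percent of the genes of each list that had a promoter region with mutant and no H3K27me3, with 95% Wilson intervals and the counts in the labels; the dashed line marks the 13.5% of all protein-coding genes. Nuclear pore genes sit at 26.9%, Zfp zinc finger genes at 20.9%, olfactory receptors at 0.736% and Hox genes at 0.

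Among Zfp zinc finger genes, many of which encode repressors of repeated elements, there were 77 of 368 (20.9%, interval 17.1 to 25.4), or 30.6% of the 252 with H2A.Z WT, and 19 of the 77 were on chromosomes 6 and 8. Zfp398 was covered over all 1025 bp, Zfp612 over 875 of 900 bp, Zfp248 over 650 of 1100 bp and, on chromosome 7, Zfp689 over 575 of 700 bp. Olfactory receptor genes, silent outside the nose, gave 8 of 1087 (0.736%, 0.373 to 1.45), which was 16.0% of the 50 with H2A.Z WT. Olfr455 and Olfr370, on chromosomes 6 and 8, had 775 of 925 bp and 650 of 750 bp.

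Hox genes had no such region, and neither did the few pluripotency genes with H2A.Z WT. No Hox gene of 40 had such a region (upper bound of the interval 8.76%), and 36 of them had a promoter H2A.Z WT region with H3K27me3, which the rule leaves out. Of 22 pluripotency genes none had one, but the upper bound of 14.9% lay above the 13.5% of all genes. Of these 22, 7 had H2A.Z WT and 3 had a promoter region with H3K27me3. For the labelled cell type, 2 of 12 ESC marker genes had a promoter H2A.Z WT region, Esrrb and Lin28a, against 60.5% of all protein-coding genes. None of the 12 had mutant without H3K27me3, and 1 had a region with H3K27me3. Of 12 fibroblast markers 8 had H2A.Z WT, beside the same 60.5%, and 4 had a region with H3K27me3. Col1a2 and Col1a1, collagen genes, had 200 of 700 bp and 75 of 350 bp of mutant. Of the longer list of 16 fibroblast genes 2 had an unmarked AP3 promoter region (12.5%, against 13.5% of all genes). Calls of H2A.Z do not measure expression, so the markers do not check the cell type.

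Among genes of H2A.Z and its deposition machinery, 4 of 21 (19.0%) had an unmarked AP3 promoter region, or 26.7% of the 15 with H2A.Z WT. Ruvbl1, an ATPase shared by the SRCAP and p400 complexes, had 200 of 400 bp of mutant, Anp32e, the chaperone that removes H2A.Z, 175 of 250 bp, Morf4l1, a subunit of the Tip60 complex, all 150 bp, and Epc2 100 of 200 bp. The interval of this list over all its genes, 7.67% to 40%, held the 13.5% of all genes. No interval was computed for the 26.7%.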

How the data were processed

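Region lists were deposited by the authors as chromosome, start and end on mm9 at P thresholds of 1e-9 and 1e-12 for H3K27me3 and both H2A.Z forms. They hold no heights, counts or P values. The processing notes name Bowtie 0.12.3 and bedtools. Antibodies for H3K27me3 differ between the labels and the methods. The lists at 1e-9 were compared. Starts were 45940 positions of protein-coding transcripts of 22342 genes in GENCODE vM1, on chromosomes 1 to 19 and X. CpG ratios and motifs were read from mm9 in 500 bp about each midpoint. Overlaps were computed in Python 3.11.15 with NumPy 2.4.6 and pysam 0.24.0 and checked on simulated lists and with bedtools. Intervals are 95% Wilson or order-statistic intervals. Members and gene lists were chosen with earlier results of these data known. Regions were named as the 10 with the most mutant bases, also outside chromosomes 6 and 8, the 5 longest with 25 bp, and up to 4 genes per list. The alternatives numbered 8. No test was possible with 1 library per group.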

Additional observations from a re-analysis of the deposited data

Results flagged for a closer look

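Mutant regions were found in the stricter lists where the 1e-9 lists held none. Of the 12101 wild type only promoter regions, 451 (3.73%, interval 3.40 to 4.08) overlapped a mutant region that was called at 1e-12 and absent at 1e-9. Their median length was 675 bp, and 76 were on chromosomes 6 and 8. An H3K27me3 region present only at 1e-12 overlapped 15 of the 2886 unmarked AP3 promoter regions (0.520%, 0.315 to 0.856), with a median length of 875 bp. Both drew attention because a call at the stricter threshold was missing from the looser list, which the main comparisons used.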

How the results depend on the processing

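The number of regions and of genes stayed within 1.5 times of 2886 and 3016 under all 8 other ways of choosing the regions. The share of unmarked promoter regions with mutant (19.3%) was 16.6% with all lists at 1e-12, 21.4% with their union, 15.1% with at least 100 bp of mutant, 20.5% and 17.4% with windows of 1 and 5 kb, 20.2% with the most upstream start and 16.8% without chromosomes 6 and 8. The covered share (39.1%) was 36.2%, 36.4% and 47.7% under the first 3 of these and 33.3% without chromosomes 6 and 8, and the median length 525 bp at 1e-12 and 600 bp with 100 bp of mutant. Midpoints downstream (59.8%) were 56.9% with 5 kb and 64.4% with the most upstream start. The CpG ratio (0.662) was 0.684 with 1 kb, 0.607 with 5 kb and 0.678 with the most upstream start, and its excess over wild type only regions (0.0573) was 0.0280 at 1e-12, 0.0219, 0.137 and 0.0271. Alternatives added after the data were seen put the ETS letters at 19.4% and divergent starts at 9.59% within 500 bp of a start. None of these reversed a difference. Of 136 gene list counts, 16 moved by over 1.5 times, in the lists of complex I, translation factors, spliceosome, synthetases, replication, nuclear pore, olfactory receptors and fibroblast markers. No paired analysis was possible because each group had 1 library and no test was made. Depth is unknown, so absent calls limit every share.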

Other observations

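Symbol families, grouped by the letters before the number, were looked at after the values were seen. Among 100 families of at least 20 genes the median share with an unmarked AP3 promoter region was 15.0%, and 13 families had none. The highest was Nudt, hydrolases of nucleoside diphosphates linked to other groups, with 10 of 22 genes (45.5%), which were 10 of the 12 with H2A.Z WT, 2 of the 10 being on chromosome 8. Nudt19 had 425 of 1375 bp of mutant, Nudt16 350 of 700 bp, Nudt8 300 of 1000 bp and Nudt21 300 of 325 bp. Nudt12 had 50 of 475 bp. As families were ranked by this share, the leading value is a description.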
